A study of Mus musculus with 4 samples.

Results

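Transcripts of the Wnt pathway were followed in melanocytes grown from mice that lack the aryl hydrocarbon receptor (AhR) and from wild-type mice. The set holds the Wnt ligands, the Frizzled receptors, the secreted Sfrp and Dkk inhibitors, and the named partners Lrp5, Lrp6, Ror2, Wif1, Porcn, Axin2, Nkd1, Tcf7l1 and Tcf7l2. Members were taken by gene symbol from probe sets annotated with a single gene. This gave 45 of 12393 measured genes, with 67 probe sets, and each gene was read on the probe set with the highest mean. A further listed gene, Tcf7, was not analysed here.

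The AhR knockout group was 2 female mice of the strain labelled AhRtm1Bra, AhR-/-, with a deletion of exon 2 of Ahr. The wild-type group was 2 female C57Bl/6 mice. Tail-skin epidermal cells of each mouse were grown in melanocyte medium without serum over 6 to 8 weeks, and each array holds the amplified RNA of a single animal. The sources give no age. Signal is the linear MAS5 intensity of an Affymetrix array, on which the number of arrays limits the precision.

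Wnt proteins are secreted signals that carry a lipid, and Porcn is the enzyme that attaches it. They bind Frizzled receptors together with Lrp5 or Lrp6, which keeps beta-catenin from being degraded and lets it act with Tcf and Lef factors on target genes. Dkk1, Dkk2 and Dkk4 act on the Lrp co-receptors, whereas Sfrp proteins and Wif1 bind the ligands. In the pigment lineage the pathway is known for directing neural crest cells to the melanocyte fate and for acting on Mitf, while Wnt5a signals largely without beta-catenin and is studied for its part in melanoma invasion.

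Ahr itself read 241 and 843 in the AhR knockout arrays, against 825 and 874 in the wild-type arrays. The place of its probe set against the deleted exon is not known here, so this reading cannot check the labels. Cyp1b1, a known AhR target, read 14.0 and 23.1 in the knockout and 1216 and 1410 in wild type. Of 9 measured melanocyte markers, all passed the signal filter. Their summed signals were 85227 and 109980 in knockout and 72399 and 56084 in wild type, so the pigment cell label held in both groups. In knockout 8 were higher and Mitf alone was lower, none past the test, with a median difference of 0.56 in log2. The groups overlapped for Tyrp1 and Oca2. AhR knockout 2 stood apart in its control probe sets, with a 3' to 5' signal ratio for Gapdh of 11.9, against 1.98 in AhR knockout 1 and 2.13 and 2.85 in wild type. Endothelial markers were lower in the knockout cultures: all 13 tested of 14 measured had a lower mean log2 signal, 2 of them past the test, and the median difference was -1.67 in log2. Tie1 and Egfl7 overlapped between the groups. Their summed signal was 15430 and 5558 in knockout and 28334 and 30971 in wild type. No marker was listed at 0, and Vwf lay below the signal filter. In such bulk cultures fewer cells of a type and less RNA per cell cannot be told apart.

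Promoters could be read for only some of the members whose groups differed or which stand beside them in the pathway. Of the members, 30 were in the RefSeq promoter table (GRCm38.p6), among them 5 of the 14 members that were tested. Wnt5a and Lrp6 were not in it, so their promoters were not searched. The windows are the 250 bases before each annotated start, read 5′ to 3′ on the gene's strand. They were searched on both strands for GCGTG, the core letters that AhR and its partner Arnt recognise, and for CTTTGA, letters in the site of Tcf and Lef factors. On the opposite strand the first reads as CACGC and the second reads as TCAAAG. The core of one motif is not contained in the other, and capitals mark the AhR core in the windows printed here. Fzd4 is shown at chr7:89404116-89404365 (plus strand), Tcf7l2 at chr19:55741560-55741809 (plus strand) and Tcf7l1 at chr6:72789046-72789295 (minus strand), because Fzd4 and Tcf7l2 were lower, and Tcf7l1 higher, on both knockout arrays.
Fzd4: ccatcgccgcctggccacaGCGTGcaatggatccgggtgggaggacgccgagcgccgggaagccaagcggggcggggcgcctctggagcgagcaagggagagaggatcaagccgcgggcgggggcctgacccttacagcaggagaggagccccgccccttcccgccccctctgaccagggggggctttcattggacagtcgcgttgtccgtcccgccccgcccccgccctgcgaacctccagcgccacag
Tcf7l2: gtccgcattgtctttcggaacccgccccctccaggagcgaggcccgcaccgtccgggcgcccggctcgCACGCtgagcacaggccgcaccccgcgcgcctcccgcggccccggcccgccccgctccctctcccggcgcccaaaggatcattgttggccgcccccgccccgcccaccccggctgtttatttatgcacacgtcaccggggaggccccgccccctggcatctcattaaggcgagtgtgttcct
Tcf7l1: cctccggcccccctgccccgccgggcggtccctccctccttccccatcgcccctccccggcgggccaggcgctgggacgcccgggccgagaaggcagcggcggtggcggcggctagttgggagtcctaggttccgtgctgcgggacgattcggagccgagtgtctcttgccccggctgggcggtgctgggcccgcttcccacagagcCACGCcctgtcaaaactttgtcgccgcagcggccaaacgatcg
Each of these windows held 1 AhR core, starting 231 bases before the start in Fzd4, 182 in Tcf7l2 and 43 in Tcf7l1. The windows of Fzd7 and Axin2, whose groups overlapped, and of the other annotated start of Tcf7l2 held none and are not printed. Over all members the AhR core was found in 18 of 34 windows, or 52.9%, against 28.2% of all 32851 windows in the table and 33.8% of windows of protein-coding genes. CTTTGA was found in 4 of the 34, or 11.8%, against 13.8% of all windows. Most member windows with an AhR core belong to members below the signal filter, and some genes, such as Wnt5b, have more than 1 window. The windows of other genes were not matched for base content. A match is a run of letters and not a shown site, and these shares were not tested.

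Most of the family was dim in both groups. Of the 45 members, 14 passed the filter that keeps the top 60% of genes by mean signal, and 31 did not. The members below the filter were not tested, and their mean signals ran from 1.52 to 74.3. Among the 19 Wnt ligands Wnt5a alone passed, whereas 6 of 9 Frizzled receptors, 2 of 9 secreted inhibitors and 1 of 3 co-receptors did. Porcn, Axin2, Tcf7l1 and Tcf7l2 passed as well, and Nkd1, a feedback inhibitor, did not.

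**Figure D1:**
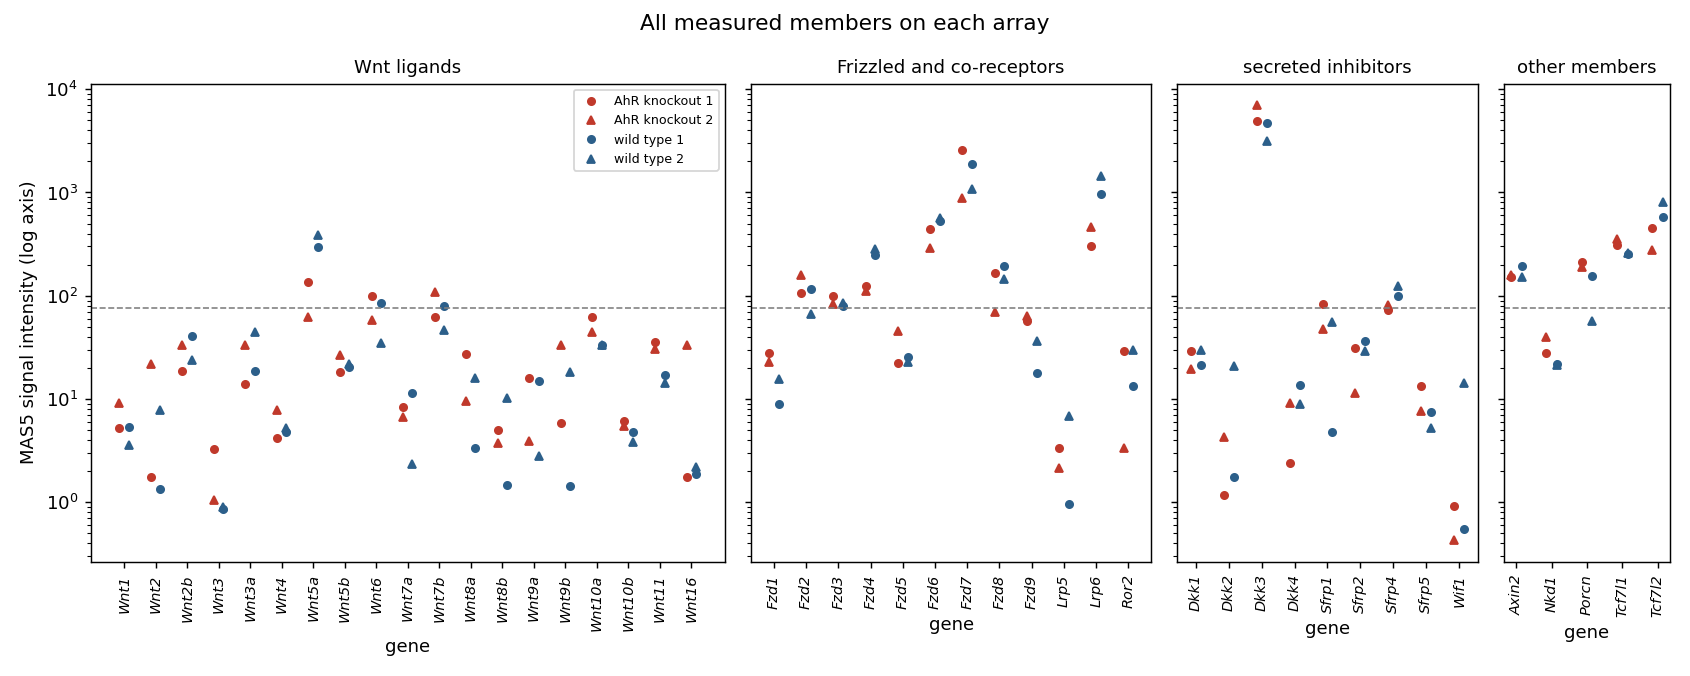
Signal intensity (vertical log axis) of the 45 measured members on each array, by role, with AhR knockout in red left of wild type in blue. The dashed line is the signal filter, at a signal of 76.1 on the mean log2 scale, and 14 genes passed it.

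Among the tested members, 8 were lower and 6 higher in the AhR knockout cells. Their median difference was -0.29 in log2, against 0.0071 over all 7436 tested genes. None of the 14 passed an adjusted p of 0.05 in limma, where 0.82% of all tested genes did, and 4 had an unadjusted p under 0.05, each of them lower in knockout (12.8% of all tested genes were lower and 7.61% higher at that level). The groups did not overlap for 9 of the 14, or 64.3%, against 55.1% of all tested genes. Of the 9, 6 were lower and 3 higher, against 26.5% and 28.6% of all tested genes. A difference of at least 2-fold with groups that did not overlap was found for 3 of the 14 in the lower direction, or 21.4%, against 10% of all tested genes. In the higher direction it was found for 0 of the 14, against 4.18%. The members of that lower set were Wnt5a, Lrp6 and Fzd4. Adjusted p-values are over all tested genes, and differences are on the log2(signal + 16) scale, which understates those of dim genes.

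**Figure D2:**
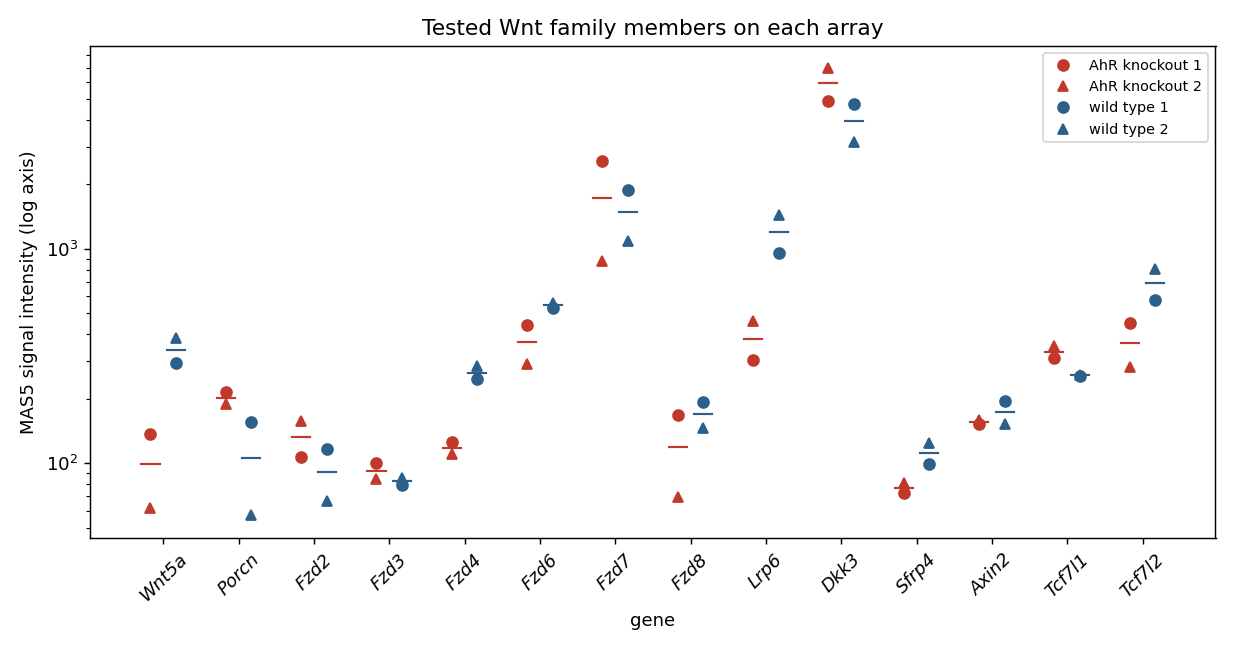
Signal intensity (vertical log axis) of the 14 tested members, with a point for each array, AhR knockout in red left of wild type in blue, and a bar at each group's mean (n = 2 each). Wnt5a, Lrp6 and Fzd4 lie more than 2-fold below wild type in the knockout, without passing the adjusted threshold.

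Wnt5a, the ligand of the branch that does not need beta-catenin, was lower on both knockout arrays. It read 137 and 61.8 in AhR knockout, against 293 and 384 in wild type. Both knockout values lay below both wild-type values, and AhR knockout 2 was the lower of the pair. The means were 99.4 ± 53.2 in knockout and 339 ± 63.7 in wild type (SD, n = 2 each), a log2 difference of -1.69 ± 0.42 (SE) with adjusted p = 0.078. Its other probe set read 80.7 and 39.4 in knockout and 108 and 170 in wild type, in the same direction and also without overlap. The size depended on single arrays: the log2 difference was -2.18 without AhR knockout 1 and -1.20 without AhR knockout 2. Without wild type 1 it was -1.87 and without wild type 2 it was -1.50. In such a fit the lone array of a group is assumed to vary like the other pair, so no p-value is given. Endothelial markers and the Gapdh ratio moved with this difference on AhR knockout 2, with the values given above, and their part in it was not tested.

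The other 18 Wnt ligands stayed below the filter. Wnt7b, a ligand known from skin, read 62.5 and 108 in knockout and 80.0 and 46.4 in wild type, with overlapping groups. Wnt6 overlapped as well, at 101 and 58.6 in knockout and 84.4 and 35.3 in wild type. Wnt10a, a ligand of skin and its appendages, read 62.7 and 44.4 in knockout and 33.3 and 33.6 in wild type. Wnt11, which acts mainly without beta-catenin, read 35.4 and 30.3 in knockout and 17.1 and 14.3 in wild type. For Wnt10a and Wnt11 both knockout values lay above both wild-type values, at signals too dim to be tested. The same order was seen for Wnt10b and Wnt3, whose values were all under 7. The other ligands below the filter were Wnt1, Wnt2, Wnt2b, Wnt3a, Wnt4, Wnt5b, Wnt7a, Wnt8a, Wnt8b, Wnt9a, Wnt9b and Wnt16, and in each of them the groups overlapped. Over all 31 dim members, knockout lay above wild type without overlap in 8 and below it in 0, against 30.5% and 11.9% of the 4957 genes below the filter.

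Porcn, whose product attaches the lipid to Wnt proteins in the secretory pathway, was higher on both knockout arrays. It read 214 and 189 in AhR knockout, against 155 and 56.9 in wild type. The knockout values lay close together and above both wild-type values, which were far apart. The log2 difference was 0.96 ± 0.44 (SE, n = 2 each) with adjusted p = 0.26 and a 95% interval from -0.024 to 1.94. It was 1.57 without wild type 1 and 0.34 without wild type 2, and 0.88 and 1.04 without AhR knockout 1 or 2.

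Among the Frizzled receptors, Fzd4 had the lowest unadjusted p, at 0.012. Fzd4, which also serves as the receptor for norrin in blood vessels, read 125 and 110 in AhR knockout, against 246 and 283 in wild type. The groups did not overlap, and the arrays within each were close. Its mean was 118 ± 10.3 in knockout and 265 ± 26.0 in wild type (SD, n = 2 each), a log2 difference of -1.07 ± 0.35 (SE) with adjusted p = 0.14. A 95% interval ran from -1.85 to -0.29. The Fzd4 difference was -1.15 without AhR knockout 1, -0.99 without AhR knockout 2, -1.16 without wild type 1 and -0.98 without wild type 2. A second Fzd4 probe set stayed below 9 on every array. Endothelial markers, of cells that also express Fzd4, were lower in the same arrays, and their part in this difference was not tested.

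Fzd6, which acts in planar polarity of skin, read 442 and 292 in AhR knockout, against 532 and 561 in wild type. The knockout values were both lower, by a log2 difference of -0.58 ± 0.38 (SE, n = 2 each) with adjusted p = 0.40, and AhR knockout 2 again had the lower one. Without that array the Fzd6 difference was -0.30. Fzd8 read 167 and 69.8 in knockout and 194 and 146 in wild type, so the groups overlapped. Its log2 difference was -0.0081 without AhR knockout 2, and -1.11 without AhR knockout 1. Over all 4 arrays it was -0.56 with adjusted p = 0.48.

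Among the remaining receptors, the tested ones, Fzd7, Fzd2 and Fzd3, had overlapping groups. Fzd7 read 2567 and 880 in AhR knockout, against 1883 and 1084 in wild type. The highest and the lowest of these values were both knockout arrays, so the log2 difference of 0.074 ± 0.51 (SE) averages opposite arrays. It was 0.84 with AhR knockout 1 as the lone knockout array and -0.69 with AhR knockout 2. Fzd2 read 107 and 158 in knockout and 116 and 66.3 in wild type, with a log2 difference of 0.49 and an interval from -0.38 to 1.35. The difference was 0.83 without wild type 1 and 0.15 without wild type 2, 0.74 without AhR knockout 1 and 0.24 without AhR knockout 2, and 0.18 with averaged probe sets. Fzd3, a receptor of the planar polarity branch, read 100 and 83.9 in knockout and 79.0 and 85.4 in wild type. Its log2 difference was 0.13, or -0.19 where its probe sets were averaged. Fzd1, Fzd5 and Fzd9 lay below the filter, with signals between 8.97 and 64.1. In Fzd9 both knockout values, 57.1 and 64.1, lay above the wild-type values of 17.9 and 36.4. Fzd1 had the same order, at 28.0 and 23.0 in knockout and 8.97 and 15.6 in wild type, and Fzd5 overlapped.

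**Figure D3:**
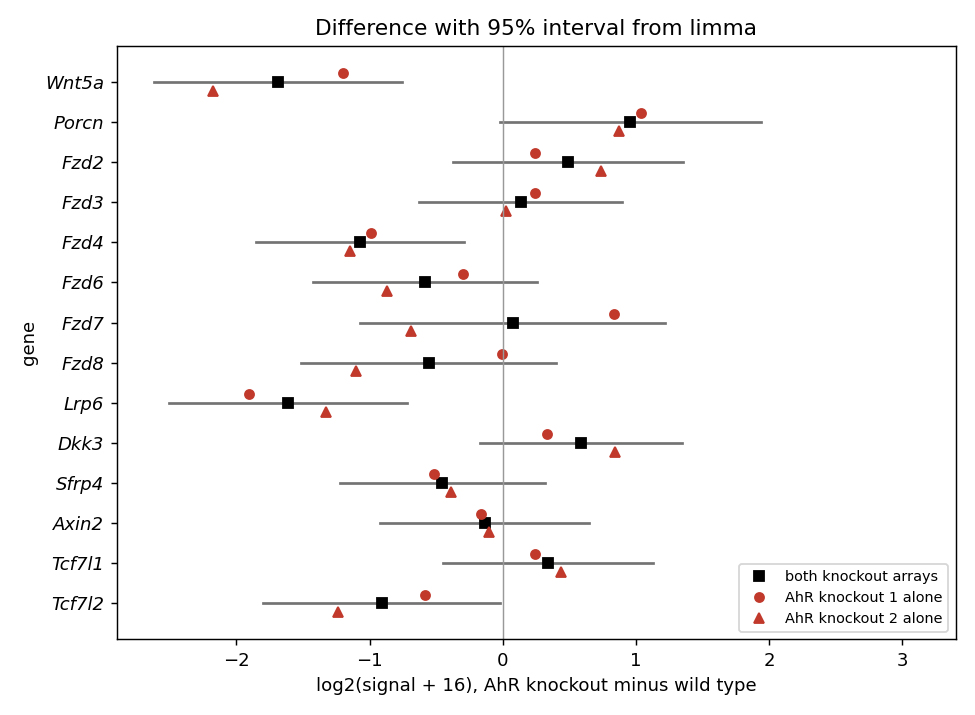
Log2 difference, AhR knockout minus wild type, for the 14 tested members, as a square with its 95% interval from limma, and with either knockout array alone set against the wild-type mean. Wnt5a, Fzd4, Lrp6 and Tcf7l2 have intervals below 0 before adjustment, and the lone arrays of Fzd7 lie on opposite sides of 0.

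Lrp6, the co-receptor that Wnt proteins bring together with Frizzled, was lower on both knockout arrays. It read 302 and 459 in AhR knockout, against 957 and 1442 in wild type. Neither knockout value reached the lower wild-type one, and here AhR knockout 1 was the lower of the knockout pair. The means were 380 ± 111 in knockout and 1200 ± 343 in wild type (SD, n = 2 each), a log2 difference of -1.62 ± 0.40 (SE) with adjusted p = 0.078. The 95% interval ran from -2.51 to -0.72. The difference was -1.33 without AhR knockout 1 and -1.91 without AhR knockout 2, the array of the high Gapdh ratio. It was -1.91 without wild type 1 and -1.32 without wild type 2. The part of RNA quality and of other cell types in the Lrp6 difference was not tested. A dimmer Lrp6 probe set read 8.31 and 38.9 in knockout and 39.5 and 40.2 in wild type. Lrp5, the related co-receptor, and Ror2, the receptor through which Wnt5a often acts, had signals between 0.968 and 29.8 and were not tested.

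Of the secreted inhibitors, Dkk3 and Sfrp4 could be tested. Dkk3, a divergent member of the Dickkopf family, read 4891 and 6970 in AhR knockout, against 4747 and 3167 in wild type. The knockout values were both higher, although AhR knockout 1 exceeded wild type 1 by little. The log2 difference was 0.59 ± 0.34 (SE, n = 2 each) with adjusted p = 0.35, and its second probe set went the same way, at 1737 and 2064 in knockout and 1518 and 713 in wild type. The Dkk3 difference was 0.33 without AhR knockout 2 and 0.30 without wild type 2. Sfrp4, a decoy for Wnt ligands, read 72.7 and 81.1 in knockout and 99.0 and 124 in wild type, a log2 difference of -0.45 with adjusted p = 0.47. Dkk1, Dkk2, Dkk4, Sfrp1, Sfrp2, Sfrp5 and Wif1 lay below the filter. Among these, 4 probe sets for Sfrp1 disagreed in direction, with log2 differences between -0.39 and 1.04 at signals of at most 82.6.

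Tcf7l1 and Tcf7l2, DNA-binding partners of beta-catenin, lay on opposite sides. Tcf7l2 read 450 and 279 in AhR knockout, against 576 and 804 in wild type. The groups did not overlap, with a log2 difference of -0.91 ± 0.40 (SE, n = 2 each) and adjusted p = 0.24. The difference was -1.24 without AhR knockout 1 and -0.58 without AhR knockout 2. Without wild type 1 it was -1.15, and without wild type 2 it was -0.67. Its other 3 probe sets had signals of at most 46.9 and did not repeat the difference. Tcf7l1, known chiefly as a repressor in this family, read 308 and 354 in knockout and 256 and 259 in wild type, with adjusted p = 0.60. A second Tcf7l1 probe set, with 338 and 328 in knockout and 139 and 190 in wild type, also had no overlap, at a log2 difference of 0.96 against 0.34 for the first.

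Axin2, a feedback inhibitor often used to read beta-catenin activity, did not differ beyond the spread of the arrays. It read 152 and 159 in AhR knockout, against 194 and 152 in wild type. The groups overlapped, and the log2 difference was -0.14 ± 0.35 (SE, n = 2 each) with an interval from -0.92 to 0.65 and adjusted p = 0.84. Averaged with a second probe set, which read at most 23.8, the difference turned to 0.45. Nkd1, another feedback inhibitor, read 28.2 and 40.2 in knockout and 22.1 and 21.4 in wild type, below the filter.

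Other genes of the pathway were read from a list of 79, of which 63 were measured and 43 tested. Of the 43, 17 were higher and 26 lower, and their median difference was -0.19 in log2. None rose and 2 fell, where 0.161% and 0.659% of all tested genes did. At an unadjusted p under 0.05, 6 of the 43 were lower, these 2 among them, and 0 higher, where 12.8% and 7.61% of all tested genes were. The genes that fell were Ccn4 and Sox17, both from the list of often used target genes. At least 2-fold lower without overlap were 5 of the 43, or 11.6%, against 10% of all tested genes.

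Ccn4, a matricellular protein found as a Wnt1-induced gene, fell to 27.8 and 113 in AhR knockout, against 482 and 518 in wild type. Its log2 difference was -2.78 ± 0.49 (SE, n = 2 each) with adjusted p = 0.041. Sox17 fell to 365 and 76.4 in knockout, against 1446 and 1531 in wild type, with adjusted p = 0.049. Sox17 is an endothelial transcription factor and also belongs to the endothelial markers, so it is no separate sign for the target list. With any single array left out, the Ccn4 difference lay between -3.56 and -2.00 and the Sox17 difference between -4.03 and -1.98. The Ccn4 call was lost under quantile normalization, a pseudocount of 1 and no filter, with adjusted p = 0.060, 0.054 and 0.20. The Sox17 call was lost under these 3 settings and under equal array medians, the top 40% of genes, averaged probe sets, eBayes without trend and robust eBayes, with adjusted p between 0.051 and 0.20 and differences from -3.15 to -2.23. Of the other tested target genes, Ccnd1, a cyclin, differed by -0.39, Myc by -0.31 and Mitf by -0.41, none past the test. Ccnd1 and Myc overlapped between the groups. Cd44 was higher by 0.57 and Dct by 0.56, without overlap and not past the test. Over the 10 tested genes of the target list, 2 were higher and 8 lower, where 49.6% of all tested genes were lower.

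Inhibitors outside the family rule included Frzb, a secreted relative of the Sfrp proteins. Frzb read 141 and 82.5 in AhR knockout, against 347 and 344 in wild type. The groups were well apart, with a log2 difference of -1.54 ± 0.38 (SE, n = 2 each) and adjusted p = 0.076. The difference was -1.87 without AhR knockout 1 and -1.20 without AhR knockout 2, and -1.53 without wild type 1 and -1.54 without wild type 2. With averaged probe sets the Frzb difference was -0.99, with adjusted p = 0.13. Tpbg, a membrane inhibitor of Wnt signalling, read 667 and 183 in knockout and 897 and 1549 in wild type, with a log2 difference of -1.70 and adjusted p = 0.14. The Tpbg difference was -2.59 without AhR knockout 1, which rests on AhR knockout 2 alone, and -0.81 without AhR knockout 2. It was -2.08 without wild type 1 and -1.31 without wild type 2. Wls, the carrier that brings Wnt proteins to the cell surface, read 983 and 825 in knockout and 1413 and 1632 in wild type, with adjusted p = 0.27.

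Within the intracellular part of the pathway the members were mixed. Among 14 tested transducers and destruction complex genes, 7 were higher and 7 lower. Tnks2, a tankyrase that marks axin for degradation, read 1601 and 1204 in AhR knockout, against 3761 and 4359 in wild type. This was a log2 difference of -1.53 ± 0.34 (SE, n = 2 each) with adjusted p = 0.064. The difference was -1.74 without AhR knockout 1 and -1.33 without AhR knockout 2, and -1.64 without wild type 1 and -1.43 without wild type 2. With averaged probe sets the Tnks2 difference was -0.43, with adjusted p = 0.48. Ctnnb1, the gene of beta-catenin, read 13549 and 19163 in knockout and 14789 and 15176 in wild type. Its log2 difference of 0.10 had an adjusted p of 0.83. Of 8 tested nuclear factors 3 were higher and 5 lower, and all 4 tested planar polarity genes were higher, none past the test. The groups overlapped for the polarity genes Vangl1, Prickle1 and Celsr2, and Vangl1 differed by only 0.021 in log2. Lef1, the R-spondin genes Rspo1 and Rspo2, and Rnf43 lay below the filter.

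**Figure D4:**
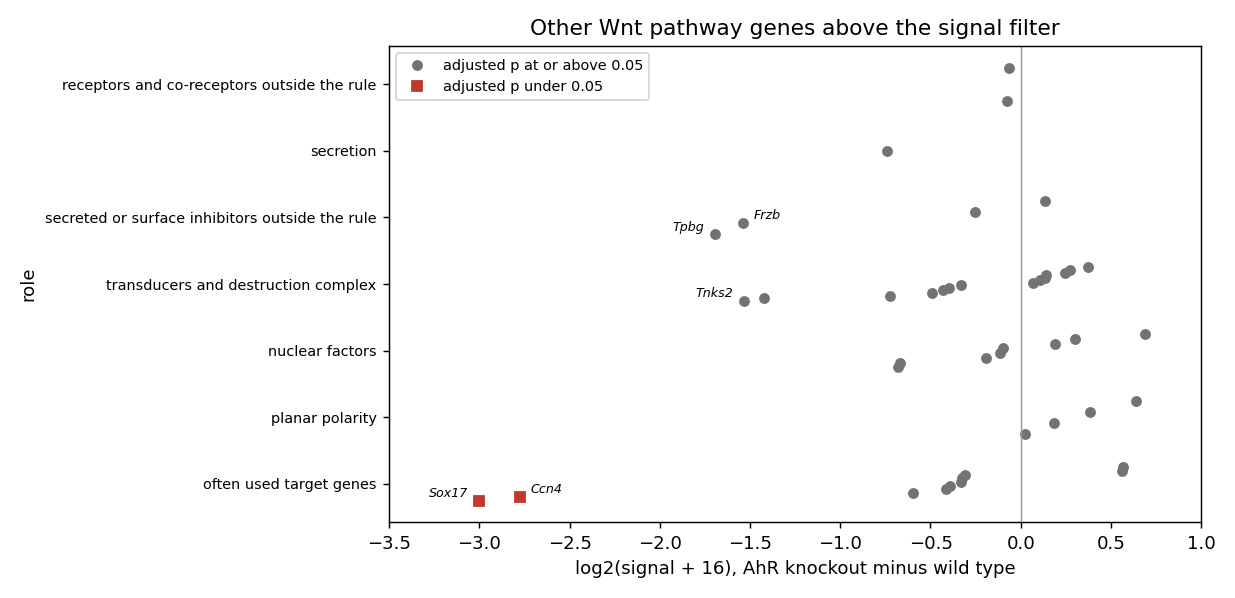
Log2 difference, AhR knockout minus wild type (horizontal axis), of 43 other pathway genes above the signal filter, by role. Squares mark adjusted p under 0.05, reached by Ccn4 and Sox17, and genes at least 2-fold apart without overlap are named.

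The direction of every tested member held under quantile normalization and equal array medians, which moved the median of all tested genes by 0.068 and 0.095. Over all tested genes 12 rose and 49 fell, so that 19.7% of calls were rises, against 32.8% with equal array medians. Markers of other cell types also differed between the arrays. Fibroblast markers summed to 2691 and 1760 in AhR knockout and 2834 and 5194 in wild type. Of 10 measured, 4 were tested, with 3 lower and Dcn higher, and Col1a1 lay below the filter. Col3a1 fell past the test, at 95.1 and 50.5 in knockout and 372 and 439 in wild type. Its log2 difference was -2.29 with adjusted p = 0.039. Keratinocyte markers summed to 1426 and 330 in knockout and 306 and 264 in wild type, with 3 of 3 tested genes higher of 9 measured, and Krt14 below the filter by its mean, although it read 539 in AhR knockout 1, with 10.9 in AhR knockout 2 and 30.8 and 11.4 in wild type. Leukocyte markers summed to 3609 and 3179 in knockout and 1600 and 1562 in wild type, with 2 of 3 tested genes higher of 6 measured, and Ptprc below the filter. Within that list Lyz2 had a log2 difference of 1.79 and adjusted p = 0.052. Schwann and glial markers summed to 3325 and 6050 in knockout and 1722 and 1957 in wild type, with S100b higher by 1.84 in log2 (adjusted p = 0.067) and Ngfr lower by a difference of -1.03. Mural markers summed to 3427 and 3860 in knockout and 3780 and 2558 in wild type, with 2 of 4 tested genes higher of 6 measured, among them Cspg4 at 1.72 (adjusted p = 0.058). Among the tested genes of these lists, the groups overlapped for Krt5, Krt10, Thy1, Dcn, Cd68, Pdgfrb, Acta2 and Mcam. Of the keratinocyte markers below the filter, Cdh3 was lower in knockout without overlap, and Krt1 and Trp63 were higher. No marker of these lists was at 0, and the part of these cells in the differences of the Wnt family was not tested.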

How the data were processed

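RNA of cultured melanocytes from 2 AhR knockout and 2 wild-type mice was hybridised to 1-colour Affymetrix arrays. The deposited values are linear intensity from MAS5, as named without a version in the submitters' processing notes. Each array had been scaled alike: the trimmed mean, over the central 96% of its values, lay at 500.2 to 500.3. No detection calls were used. Groups follow the sample titles.

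Of 22690 probe sets, 20380 had a single gene symbol, and 20351 of these were matched by gene identifier to current RefSeq names (GRCm38.p6). A gene was read on the probe set with the highest mean of log2(signal + 16), which for the 45 members was also that with the highest mean signal. The top 60% of genes on that scale, 7436 in all, were tested with limma 3.58.1 (lmFit, eBayes with trend) in R 4.3.3. P-values were adjusted by Benjamini-Hochberg across all of them. Exact permutation of 2 against 2 arrays cannot go below 33.3%. In simulated arrays of these 7436 genes the method found 20.2% of 2-fold and 94.4% of 4-fold changes, with 6.43% of calls false. The simulated noise was independent between arrays and genes and took its variance from the fit. It held no shared deviations, RNA quality difference or shift in cell types, so these rates need not hold for the real arrays. By rule, members at least 2-fold apart without overlap, and tested members among the brightest 10 of the family, got the value on every array, and other pathway genes were named where they passed the test or, by smallest p, were at least 2-fold apart without overlap. Values of the other members, and Ctnnb1, Wls, Ccnd1, Myc, Mitf, Cd44 and Dct, were added after their values were seen. Alternatives were normalization, scaling, pseudocount, filter, probe sets, the variance model, a replicate block and each array left out. Members and lists were chosen with earlier results of these data known.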

Additional observations from a re-analysis of the deposited data

How the results depend on the processing

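No tested member passed the adjusted threshold in the main setting, and none did under a pseudocount of 1 or 64, no filter, the top 40% of genes, quantile normalization, equal array medians, averaged probe sets, eBayes without trend, robust eBayes or, added after the data were seen, probe sets and filter by linear means. With the title number as a replicate block 4 members fell (Wnt5a, Lrp6, Fzd4 and Tcf7l2) and 1 rose (Porcn). There the SE of tested members ran only from 0.34 (Dkk3) to 0.37 (Fzd3). In the main setting it ran from 0.34 (Dkk3) to 0.51 (Fzd7). Such near-equal SEs follow little of a gene's own spread, so calls under the block do not measure it. The labels do not say that the numbers pair the animals. Deviations of same-numbered arrays correlated at 0.356 across genes. Leaving out 1 array leaves a lone array in a group, which is assumed to vary like the other pair. Separate counts of calls from these fits are therefore not given. Of 202 member results under all alternatives, 190 kept their side of the threshold. The rest passed it under the block or in a fit with a lone knockout array. Directions turned for members short of the threshold: Axin2 (0.45) and Fzd3 (-0.19) with the mean of probe sets, Axin2 without wild type 1 (0.025), and Fzd7 without AhR knockout 1 (-0.69) or wild type 2 (-0.32). The calls of Ccn4 and Sox17 were lost under 3 and 8 alternatives.

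Over all tested genes, 12 rose and 49 fell. Quantile normalization gave 5 and 15, a pseudocount of 64 gave 21 and 77, no filter 0 and 1, the top 40% of genes 2 and 2, and the replicate block 431 and 940. Equal array medians gave 20 that rose. With arrays left out, 5 to 518 rose and 22 to 805 fell. Dim members lie near the array's background, so signal limits what can be said of them.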

Other observations

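Several dim ligands had a higher signal on AhR knockout 2 than on the other arrays. Wnt16 read 1.77 and 33.4 in AhR knockout arrays 1 and 2, against 1.88 and 2.21 in wild type. Wnt2 read 1.76 and 22.1 in AhR knockout arrays 1 and 2, against 1.36 and 7.78 in wild type. Wnt9b read 5.84 and 33.6 in AhR knockout arrays 1 and 2, against 1.46 and 18.2 in wild type. All are below the signal filter and were picked after their values were seen. Other dim ligands, such as Wnt6 and Wnt8a, read highest on AhR knockout 1. How often dim genes in general read highest on AhR knockout 2 was not counted. AhR knockout 2 is also the array with the Gapdh ratio of 11.9, whose part in these values was not tested.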
